A study of Gallus gallus and Anas platyrhynchos and Coturnix japonica with 11 samples.

Results

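The comparison described here is that of HH25 with HH20 in the frontonasal prominence (FNP) mesenchyme of chicken (Gallus gallus), quail (Coturnix japonica) and duck (Anas platyrhynchos), over all 10 biological samples of the series, which were sequenced in 11 libraries. Each stage had 5 samples of pooled embryos: 2 chicken, 1 quail and 2 duck samples at HH20 and the same at HH25. The first samples were pools of 40 embryos, and the second samples, made for chicken and duck, were pools of 5. No embryo was treated or carried an engineered allele. The prominence was cut out between the nasal pits, and surface ectoderm and forebrain epithelium were taken off. The study describes what remains as neural crest mesenchyme. miRNAs known from epithelium, blood and endothelium were nevertheless read in every sample. Both stages are those of Hamburger and Hamilton, whose series counts the steps of chick development. At HH20 the 3 faces look alike, and by HH25 they differ by species, so the comparison asks which miRNAs change with stage in all 3 birds alike. Each sample is a pool, so the errors below cover pools, not embryos. Quail, with 1 pool a stage, has no replicate of its own. The stage effect is taken as common to the species. Its errors therefore also take in species differences in that effect, and differences between pools of 40 and of 5 embryos.

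A miRNA is a short RNA that guides a silencing complex to mRNAs, mainly by pairing through its seed, bases 2 to 8 from the 5′ end, so that miRNAs with a shared seed can act on overlapping targets. A miRNA hairpin can release an arm from each side, and for many hairpins the name of 1 arm carries an asterisk, which does not always mark the scarcer arm: miR-199* lay above miR-199 in every sample. A pair of families is known for opposite behaviour in development. The miR-302/miR-367 cluster is expressed in pluripotent and early embryonic cells and is lost as they differentiate, whereas mature let-7 accumulates as cells differentiate and is held back in early cells by the RNA-binding protein LIN28.

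The sequences of the miRNAs on which the results turn, as the authors' files list them, are shown first, since seed sharing and near-identity decide how they can be read. The seed is in capitals. The let-7 members that share the seed GAGGUAG were:
let-7a: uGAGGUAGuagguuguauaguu
let-7b: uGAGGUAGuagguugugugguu
let-7c: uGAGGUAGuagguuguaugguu
let-7d: aGAGGUAGuggguugcauagu
let-7f: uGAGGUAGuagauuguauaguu
let-7g: uGAGGUAGuaguuuguacagu
let-7i: uGAGGUAGuaguuugugcugu
let-7k: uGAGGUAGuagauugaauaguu
The cluster of miR-302 and miR-367 gave 4 listed arms, of which miR-302b and miR-302c share a seed, and miR-367 has the seed of miR-92:
miR-302b: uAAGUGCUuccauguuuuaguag
miR-302b*: aCUUUAACauggaggugcuuucu
miR-302c: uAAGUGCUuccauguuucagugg
miR-367: aAUUGCACuuuagcaauggug
miR-92: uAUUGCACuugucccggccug
A further 4 arms come from 2 hairpins, that of miR-140 and that of miR-2954, and each has a seed of its own among the miRNAs called below:
miR-140-5p: aGUGGUUUuacccuaugguag
miR-140-3p: cCACAGGGuagaaccacggac
miR-2954: cAUCCCCAuuccacuccuagca
miR-2954*: gCUGAGAGggcuuggggagagga
On the chicken build gga3, the hairpins of miR-302b, miR-302c and miR-367 lie within 1109 bases at chr4:58651314-58652422, and those of let-7a-1, let-7f and let-7d within 1549 bases at chr12:6301452-6303000. The miR-140 hairpin lies at chr11:21030641-21030735. In the RefSeq annotation of a later build, GRCg7b, the miR-302b, miR-302c and miR-367 genes lie inside LARP7, miR-140 inside WWP2 and miR-2954 inside XPA on chromosome Z. Reads were mapped with up to 2 mismatches, and 62 miRNAs of the table have another miRNA within 2 mismatches of their mature sequence. Among the let-7 members with this seed, let-7d had no other that close and let-7i had let-7g, while let-7a had 5. miR-302b and miR-302c are also that close to each other, whereas miR-302b* has no such neighbour, so reads of the close members may have been shared between them.

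Libraries held 3097711 to 13340502 reads, the highest figure being the sum of both runs made from chicken HH25 sample 2. Values are normalized read counts (PMMR, the reads of a miRNA in every 1000000 reads of the library), and 1 read was worth 0.0750 to 0.323 PMMR. Of the values of the 10 samples and of both runs, 5 stood at 3 reads or fewer and none at 0. The PMMR of all miRNAs of the table summed to a mean of 64.2% of the reads at HH20 and 74.2% at HH25, a difference of 9.99 percentage points (exact permutation test within species, two-sided, p = 0.0278, the smallest of 72 arrangements). These sums count some reads more than once: miR-193a* and miR-193b* have the same sequence and equal values in every sample. Abundant miRNAs may be affected too. miR-16 and miR-16c, 2 mismatches apart, had near-equal values in every sample (16928 and 16410 PMMR in the first chicken sample at HH20). Total reads did not separate the stages (exact permutation test, p = 0.722). The first chicken sample at HH25 stood apart: 42 miRNAs differed by more than 4-fold between it and the second chicken sample of that stage, across which Pearson's r was 0.84 over all miRNAs. The stage effects were therefore estimated both in the 10 samples and in the 9 without it.

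Stage effects were estimated as the HH25 minus HH20 difference on log2(PMMR + 1) with species as a term, tested with limma and adjusted over every miRNA of the table by the Benjamini-Hochberg method. A miRNA was called at an adjusted p under 0.05. In 10 samples, 6 miRNAs were called, 3 higher and 3 lower at HH25, which is 3.23% of those tested, and 31 had an unadjusted p under 0.05. All 6 belonged to the let-7 family or to the miR-302/miR-367 cluster. In the 9 samples, 17 were called, 10 higher and 7 lower (9.14%), with 41 under the unadjusted 0.05, and these 17 included the 6. The median stage effect over all miRNAs was 0.06 in 10 samples and 0.05 in 9 on the log2 scale. Centring each library on its median raised that median by 0.11, and rescaling to the summed miRNAs lowered it by 0.21, in 10 samples. The 6 and the 17 kept their direction under both scalings, but the split of calls moved: 12 higher and 4 lower when centred and 3 and 4 when rescaled in 10 samples, and 20 and 6 or 4 and 9 in the 9 samples. Because these are bulk pools, a lower miRNA cannot be told apart from fewer cells that carry it.

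The miR-302/miR-367 cluster fell between HH20 and HH25, with 3 of its 4 listed arms called lower in both fits, where 1.61% of all miRNAs were called lower in 10 samples and 3.76% in 9. miR-302b, a guide arm of the cluster, stood at 445 and 306 PMMR in the first and second chicken samples at HH20 and at 84.7 and 57.7 PMMR at HH25. In quail miR-302b went from 613 to 198 PMMR, and in duck from 272 and 586 to 66.4 and 68.3 PMMR. The highest HH25 value was thus the quail one, and every HH25 sample lay below every HH20 sample of the 3 species. miR-302b* from the other side of the hairpin went from 131 and 122 to 16.7 and 17.5 PMMR in chicken, from 89.5 to 22.3 in quail and from 85.7 and 246 to 16.7 and 18.2 in duck. At HH25 the samples of miR-302b* lay close together, the quail one again the highest. miR-302c was at 170 and 238 PMMR in chicken at HH20 and at 73.8 and 28.6 at HH25, fell from 476 to 171 in quail, and stood at 177 and 447 against 59.5 and 47.0 PMMR in duck. Within each species its stages did not overlap, although the quail HH25 sample of miR-302c was as high as the first chicken sample at HH20.

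The stage effect of miR-302b was -2.30 on the log2 scale (SE 0.33, n = 5 and 5, limma, adjusted p = 0.00325), a 4.92-fold fall, and -2.37 (SE 0.32, adjusted p = 0.00140) in 9 samples. miR-302b* had the largest effect of all miRNAs in 10 samples, -2.71 (SE 0.38, limma, adjusted p = 0.00325), and -2.69 (SE 0.39, adjusted p = 0.00140) in 9. miR-302c fell by 2.09 (SE 0.39, limma, adjusted p = 0.0176) in 10 samples and by 2.30 (SE 0.36, adjusted p = 0.00204) in 9. Both arms of the miR-302b hairpin were called in each of the 10 fits of the 10 samples that left out 1 sample and in each of 14 other alternatives, with adjusted p between 0.000417 and 0.0106 in the latter. The 14 do not include the fits of the first samples alone and of the second samples alone, in which no miRNA was called. The fourth arm, miR-367, was scarce, at 0.63 to 15.2 PMMR over the samples and 2 to 67 reads. Its effect was -1.13 (SE 0.44, limma, adjusted p = 0.241) in 10 samples and -1.45 (SE 0.42, adjusted p = 0.0511) in 9, the value nearest to the threshold on its outer side. In quail, chicken and duck alike the cluster together held 539 to 1285 PMMR at HH20 and 105 to 395 PMMR at HH25.

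The let-7 members that passed the test rose. In 10 samples let-7f, let-7g and let-7i were called higher, 3 of the 10 listed arms against 1.61% of all miRNAs called higher, and let-7a joined them in 9 samples (4 of 10 against 5.38%). let-7f stood at 4782 and 3843 PMMR in chicken at HH20 and at 20196 and 12215 at HH25, went from 6533 to 13094 in quail and from 13097 and 6518 to 45741 and 19168 in duck. Stages of let-7f did not overlap within any species, but the first duck sample at HH20 matched the quail sample at HH25. let-7g rose from 478 and 334 to 4179 and 1702 PMMR in chicken, from 670 to 1363 in quail and from 930 and 354 to 3279 and 1948 in duck. All HH25 samples of let-7g lay above all HH20 samples. let-7i, a low-level member, went from 9.58 and 7.91 to 260 and 68.7 PMMR in chicken, from 14.8 to 23.9 in quail and from 22.5 and 9.50 to 116 and 79.6 in duck. The first chicken sample at HH25 was the highest for let-7g and let-7i, and quail showed the smallest rise. let-7a stood at 9139 and 3357 PMMR in chicken at HH20 and 52203 and 23372 at HH25, rose from 7790 to 19168 in quail and from 15525 and 4152 to 30817 and 18529 in duck.

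On the log2 scale let-7i rose by 2.70 (SE 0.57, n = 5 and 5, limma, adjusted p = 0.0247) in 10 samples and by 2.24 (SE 0.45, adjusted p = 0.00945) in 9. let-7g rose by 2.15 (SE 0.41, limma, adjusted p = 0.0176) and by 1.86 (SE 0.34, adjusted p = 0.00572) in 9. let-7f rose by 1.62 (SE 0.33, limma, adjusted p = 0.0242) and by 1.47 (SE 0.31, adjusted p = 0.0114) in 9. let-7a had an effect of 1.95 (SE 0.47, limma) in 10 samples with an adjusted p of 0.0523, just outside the threshold, and was called in 9 samples, where it rose by 1.67 (SE 0.41, adjusted p = 0.0273). With the sample number of each species as a replicate block, let-7a was also called in 10 samples (limma, adjusted p = 0.00843). The block pairs HH20 and HH25 samples of the same pool size, which are not known to have been prepared together. In 9 samples the block added let-7c (adjusted p = 0.0154), let-7d (0.0463) and miR-218 (0.0463) to the calls. The calls of let-7f, let-7g, let-7i and miR-302c depended on single samples, and each lost its call without the first or the second chicken sample at HH20, the second duck sample at HH20 or the first duck sample at HH25, with adjusted p between 0.0586 and 0.0979. let-7i and miR-302c also lost it without the second duck sample at HH25 (0.0518 to 0.0567).

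The rest of the let-7 family had positive effects that did not pass the test. The effect was positive for all 10 listed arms in both fits, with a median of 1.71 in 10 samples and 1.47 in 9, beside 0.06 and 0.05 over all miRNAs, and this sign held for the family's median when libraries were centred or rescaled. let-7c, an abundant member, went from 12995 and 3579 to 36930 and 30719 PMMR in chicken, from 8307 to 18837 in quail and from 23617 and 4702 to 25975 and 21032 in duck, where the second sample at HH25 fell short of the first at HH20. let-7d, the member without a close neighbour in sequence, had values of 7.53 and 3.07 against 47.0 and 16.2 PMMR in chicken, 19.1 and 38.4 in quail, and 12.8 and 2.05 against 25.8 and 15.6 in duck. Its effect was 1.79 (SE 0.54, limma, adjusted p = 0.120) in 10 samples and 1.49 (SE 0.50, adjusted p = 0.0991) in 9. let-7b reached 519 PMMR in chicken HH25 sample 1 and 3.46 to 45.5 in all other samples. As a share of the summed PMMR of listed miRNAs, the let-7 arms held 2.14% to 7.06% in the HH20 samples and 7.15% to 16.1% in the HH25 samples, with means of 3.99% and 10.9%. The mean summed PMMR of all miRNAs was 99909 higher at HH25 in 10 samples, which is the net of rises and falls. The let-7 arms rose by 54514, carried by let-7a, let-7c and let-7f (52012), and the largest fall was that of miR-21 (-8950). Without the first chicken sample at HH25 the rise of let-7a went from 20825 to 14979 PMMR. These rankings also changed without it. The largest rise was then that of miR-143 (27095, against 13803 in 10 samples). The largest fall was that of miR-363 (-7312), with miR-21 at -5783. All these are differences of plain means without a species term. Without that sample, chicken weighed less in the HH25 mean than in the HH20 mean. For miR-143, the first duck sample at HH25 held 112894 PMMR, and quail went from 45352 to 80641. The second chicken sample at HH25 held 39467 PMMR, against 37422 and 54488 in chicken at HH20.

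**Figure D1:**
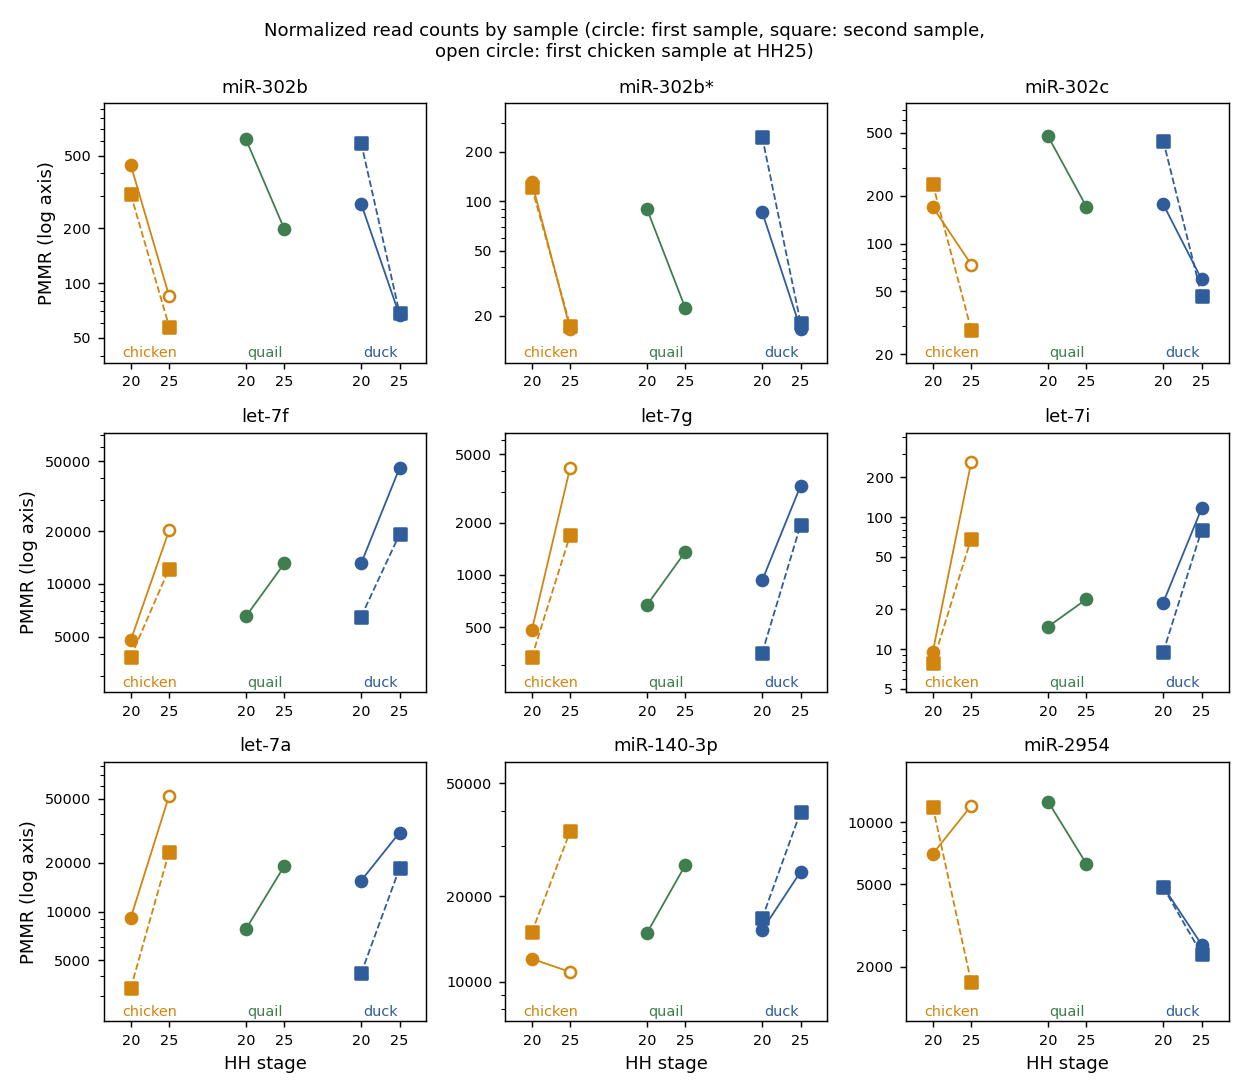
Normalized read counts (PMMR, log axis) of 9 miRNAs by HH stage in chicken, quail and duck, with each sample as a point, lines joining samples of the same number, and the first chicken sample at HH25 as an open circle. miR-302b, miR-302b* and miR-302c are lower at HH25 in each species (miR-302b: 57.7 to 198 PMMR at HH25, 272 to 613 at HH20), and the let-7 members are higher, while the open circle goes against the other samples for miR-140-3p and miR-2954.

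Another 11 miRNAs were called in the 9 samples and not in the 10, among them let-7a. When libraries were rescaled to the summed miRNAs, let-7a kept its call in 9 samples. The other higher ones (miR-140-3p, miR-140-5p, miR-30a-5p, miR-3535, miR-1261 and miR-184) lost theirs under that scaling. Of the lower ones, miR-92 lost its call when libraries were centred on their median. Both arms of miR-140, a miRNA of developing cartilage, rose. miR-140-3p stood at 12042 and 14906 PMMR in chicken at HH20, at 33886 in the second chicken sample at HH25 and at 10823 in the first, rose from 14850 to 25782 in quail and from 15195 and 16723 to 24397 and 39693 in duck. The first chicken sample at HH25 was thus the lowest of the 10, and the other HH25 samples lay above all HH20 samples. miR-140-3p rose by 1.04 (SE 0.24, limma, adjusted p = 0.0196) in 9 samples, against 0.75 (SE 0.33, adjusted p = 0.291) in 10. miR-140-5p rose by 0.93 (SE 0.26, limma, adjusted p = 0.0417) in 9 samples, against 0.65 (adjusted p = 0.316) in 10.

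Both arms of miR-2954, an avian miRNA encoded on the sex chromosome Z and known in chick and zebra finch for higher levels in males than in females, fell. miR-2954 stood at 7016 and 11849 PMMR in chicken at HH20, and at HH25 at 11992 in the first and 1680 in the second sample. It went from 12565 to 6275 in quail and from 4869 and 4840 to 2554 and 2301 in duck. The first chicken sample at HH25 was as high as the second chicken sample at HH20, and the second was the lowest of the series. miR-2954 fell by 1.44 (SE 0.29, limma, adjusted p = 0.00945) in 9 samples, against -1.01 (SE 0.46, adjusted p = 0.293) in 10. miR-2954* went from 675 and 2071 to 368 and 79.5 PMMR in chicken, from 910 to 588 in quail and from 1362 and 523 to 175 and 72.9 in duck. It fell by 2.67 (SE 0.53, limma, adjusted p = 0.00945) in 9 samples, and stood at -2.39 (SE 0.59, adjusted p = 0.0523) in 10. The sexes of the pooled embryos are not given in the sources used here, and their part in this difference was not tested.

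miR-7, known from neural and neuroendocrine tissue, stood at 350 and 459 PMMR in chicken at HH20 and at 1165 and 81.1 at HH25, at 476 and 386 in quail, and at 781 and 376 against 259 and 134 in duck. Its values at HH25 in chicken lay on both sides of those at HH20. miR-7 fell by 1.48 (SE 0.37, limma, adjusted p = 0.0282) in 9 samples, against -0.82 (SE 0.65, adjusted p = 0.486) in 10. miR-92, a member of the miR-17-92 cluster, which is known for driving proliferation, fell by 0.95 (SE 0.26, limma, adjusted p = 0.0397) in 9 samples, against -0.71 (SE 0.32, adjusted p = 0.293) in 10. Its values were 9590 and 17238 against 14334 and 5148 PMMR in chicken, 20642 and 11948 in quail, and 11031 and 15575 against 8608 and 6673 in duck. miR-30a-5p rose by 0.81 (SE 0.21, limma, adjusted p = 0.0297) in 9 samples, against 1.21 (SE 0.38, adjusted p = 0.131) in 10. Its values went from 3015 and 3701 to 5486 PMMR in the remaining chicken samples, from 7588 to 13890 in quail and from 11160 and 12594 to 22406 and 20119 in duck. The first chicken sample at HH25 held 23342 PMMR of miR-30a-5p, the highest of the 10.

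miR-3535, miR-1261 and miR-184 were the other calls in 9 samples. miR-3535 went from 524 and 636 to 900 and 1160 PMMR in chicken, from 252 to 466 in quail and from 198 and 241 to 483 and 377 in duck, and its first chicken sample at HH25 lay with the rest. It rose by 0.96 (SE 0.24, limma, adjusted p = 0.0273) in 9 samples, with 0.89 (SE 0.24, adjusted p = 0.0697) in 10. miR-1261, matched through its human sequence, went from 52.3 and 19.5 to 118 and 158 PMMR in chicken, from 7.74 to 22.6 in quail and from 90.7 and 89.1 to 127 and 251 in duck, a rise of 1.48 (SE 0.41, limma, adjusted p = 0.0426) in 9 samples, and the effect in 10 missed the threshold (adjusted p = 0.0697). miR-184 differed more between species than between stages, at 1430 and 1897 against 271 and 1890 PMMR in chicken, 67.2 and 135 in quail, and 246 and 190 against 802 and 598 in duck. It rose by 1.06 (SE 0.30, limma, adjusted p = 0.0458) in 9 samples, against 0.39 (SE 0.62, adjusted p = 0.752) in 10. In the 9 samples it was the single one of the 17 whose stages overlapped in a species, chicken. In the 10 samples, 11 of the 17 were without overlap in every species. Over all miRNAs, 19.9% were without overlap in 9 samples and 12.9% in 10. The 17 were chosen by a test on these same values, so their lack of overlap is partly set by that choice.

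**Figure D2:**
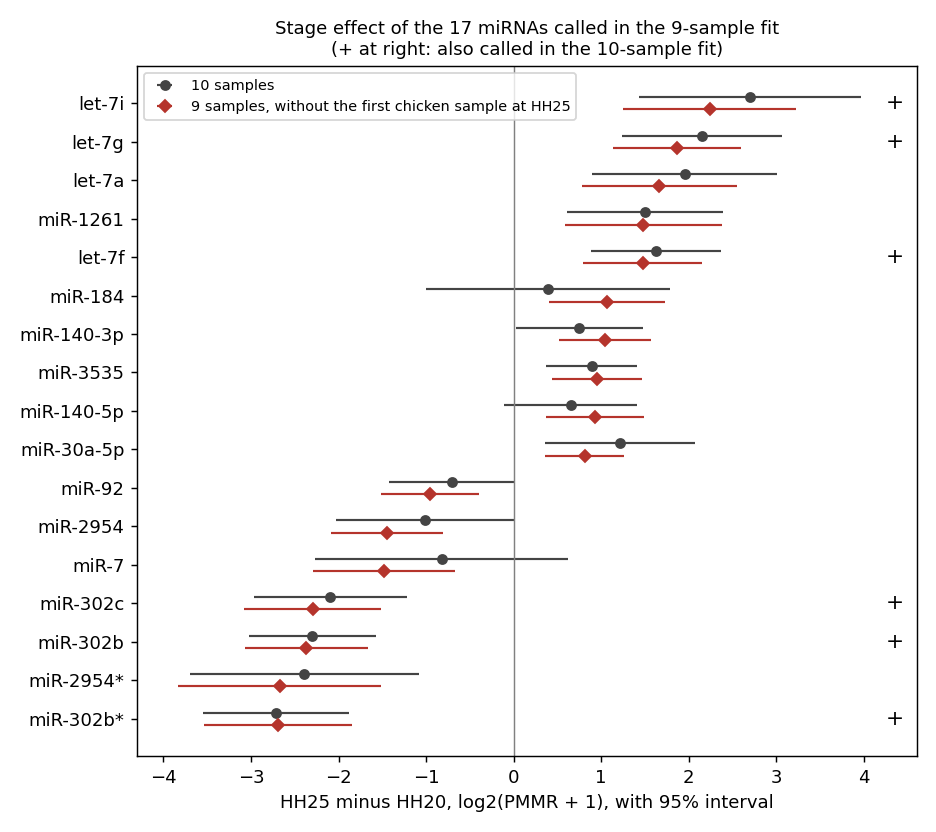
Stage effect (HH25 minus HH20, log2(PMMR + 1)) with its 95% interval for the 17 miRNAs called in the 9 samples, estimated in 10 samples (circles) and in 9 (diamonds). The intervals of miR-302b, miR-302b*, miR-302c, let-7f, let-7g and let-7i lie 0.79 or more from 0 in both, whereas those of miR-184, miR-140-5p, miR-7, miR-92 and miR-2954 reach or cross 0 when the first chicken sample at HH25 is present.

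The calls in 9 samples leaned on the second chicken sample at HH25, then the single one of its group. Without it 5 of the 17 kept their call (miR-302b, miR-302b*, miR-302c, let-7g and miR-184), and the other 12 had adjusted p between 0.0534 and 0.307. With both chicken samples at HH25 gone, that stage held quail and duck samples only. miR-184 kept its call in only 2 of the 9 fits that left out 1 sample, and in 7 of 13 other alternatives. miR-302b, miR-302b*, miR-302c and let-7g kept theirs in all of these. Without the second duck sample at HH20 or at HH25, 9 of the 17 kept their call in each case. The number of calls in 10 samples ranged from 2 to 17 as single samples were left out. It was 2, namely miR-302b and miR-302b*, without either chicken sample at HH20, without the second duck sample at HH20 and without the first duck sample at HH25.

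By seed, the 17 called miRNAs carried 13 different seeds of the 134 in the table. The let-7 seed was shared by 8 miRNAs, which had effects between 1.02 and 2.70 in 10 samples and between 0.84 and 2.24 in 9, and 6 of them were among those whose stages did not overlap in any species in 10 samples, which held for 12.9% of all miRNAs. The miR-302 seed was shared by 2, both called lower. Of the 5 miRNAs with the miR-30 seed, known from epithelial and mesenchymal differentiation, 1 was called in 9 samples, where 9.14% of all miRNAs were, and 3 did not overlap between stages in any species, beside 12.9% of all miRNAs. miR-30e went from 6082 and 4614 to 17439 and 7888 PMMR in chicken, from 9500 to 11261 in quail and from 8357 and 10645 to 11013 and 16134 in duck, with an effect of 0.71 (limma, adjusted p = 0.271) in 10 samples and 0.46 (adjusted p = 0.271) in 9. miR-30d had an effect of 0.51 (limma, adjusted p = 0.293) in 10 samples and 0.41 (adjusted p = 0.311) in 9. The 7 other arms of miR-30 hairpins lay between -0.03 and 0.51 in 10 samples and between -0.20 and 0.29 in 9. The 5 miRNAs of the miR-15/16 seed, known for restraining the cell cycle, had positive effects of 0.36 to 0.93 in 10 samples and of 0.01 to 0.70 in 9, with none called. Of these, miR-15b and miR-15c did not overlap between stages in any species, and miR-16 and miR-16c may share reads.

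The seed AUUGCAC joined miR-367 of the falling cluster with miR-92, miR-92b, miR-363 and miR-32. In 9 samples all 5 had negative effects, from -1.45 to -0.23 with a median of -0.76, and 1, miR-92, was called lower, beside 3.76% of all miRNAs. In 10 samples 2 of the 5 were positive and the median was -0.12. Over the 19 listed arms of the miR-17-92 and miR-106a/miR-363 clusters, 1 was called lower in 9 samples, a share near the 3.76% of all miRNAs called lower there, and none in 10, and the median was -0.36 and -0.21. The 4 miRNAs with the seed of miR-17 and miR-20, from the same clusters, lay between -0.21 and 0.19 in 10 samples and between -0.27 and 0.04 in 9. The 6 of the seed of miR-130, miR-301 and miR-454 lay between 0.02 and 0.44 in 10 samples and between -0.14 and 0.34 in 9, none called. Of the 7 arms of miR-99, miR-100 and miR-125, whose hairpins neighbour let-7 hairpins, none was called, and all 7 had positive effects in both fits with a median of 0.62 in 10 samples and 0.42 in 9. Of 40 hairpins with both arms listed, 30 had effects of 1 sign in 10 samples and 31 in 9.

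**Figure D3:**
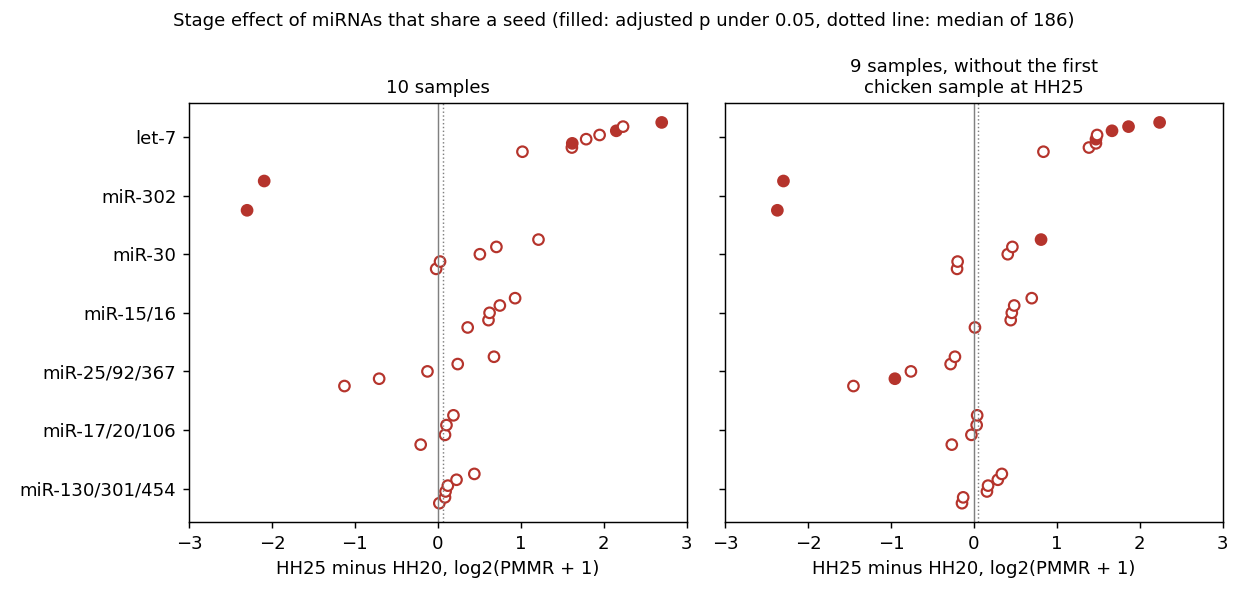
Stage effect (HH25 minus HH20, log2(PMMR + 1)) of each miRNA in 7 seed families, in 10 samples (left) and in 9 (right), with called miRNAs filled and the median of all miRNAs dotted. The 8 let-7 members lie between 1.02 and 2.70 and both miR-302 members below -2 in 10 samples, whereas the miR-25, miR-92 and miR-367 members spread over both signs on the left and are all negative on the right.

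A count that uses no pooled fit asked for which miRNAs every HH25 sample lay above, or below, every HH20 sample of its own species in chicken, quail and duck. This held for 24 miRNAs (12.9% of the table), 18 higher (9.68%) and 6 lower (3.23%), and for 37 (19.9%), 22 higher (11.8%) and 15 lower (8.06%), without the first chicken sample at HH25. The 37 included the 24. A sample fewer makes the condition easier to meet, and the count lay between 28 and 37 when any chicken or duck sample was left out. Of the 24, 6 were called in 10 samples and 11 in 9, and 16 of the 17 called in 9 samples were among the 37. Calls and count were taken from the same values, so the miRNAs they share are no separate support for either. The direction of the count depends on the scale, since rescaling each library to its summed miRNAs gave 11 higher and 18 lower. let-7 gave 6 of the 18 higher ones and the miR-302/miR-367 cluster 3 of the 6 lower ones, with miR-2954*, miR-142-3p and miR-92a-2* as the others. By the means of each species, 90 miRNAs (48.4%) moved in 1 direction in all 3, 52 higher (28.0%) and 38 lower (20.4%).

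Of the 24, 13 were called in neither fit, with adjusted p of 0.120 to 0.451 in 10 samples. miR-218, whose first hairpin lies inside SLIT2 in the RefSeq annotation of GRCg7b, went from 377 and 214 to 1380 and 430 PMMR in chicken, from 481 to 738 in quail and from 428 and 298 to 850 and 652 in duck. Its effect was 1.12 (SE 0.36, limma, adjusted p = 0.138) in 10 samples and 0.81 (SE 0.27, adjusted p = 0.0955) in 9. miR-215 went from 249 and 169 to 889 and 286 PMMR in chicken, from 276 to 525 in quail and from 26.1 and 31.4 to 47.5 and 61.5 in duck, an effect of 1.06 (limma, adjusted p = 0.151) in 10 samples and 0.77 (adjusted p = 0.137) in 9, which missed the threshold in both. miR-135a-3* reached 907 PMMR in chicken HH25 sample 1 and 32.2 to 129 in the other 9, and its effect went from 1.41 to 0.59 without that sample. let-7k, at 1.02 (limma, adjusted p = 0.138) in 10 samples and 0.84 (adjusted p = 0.121) in 9, separated the second duck samples by 713 against 714 PMMR. Of the lower ones, miR-142-3p, a miRNA of blood cells, went from 201 and 132 to 54.4 and 109 PMMR in chicken, from 259 to 160 in quail and from 387 and 502 to 127 and 313 in duck, with an effect of -1.02 (SE 0.35, limma, adjusted p = 0.154) in 10 samples and -0.86 (adjusted p = 0.137) in 9. miR-92a-2* had an effect of -0.67 (SE 0.24, limma, adjusted p = 0.173) in 10 samples and -0.61 (adjusted p = 0.154) in 9.

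**Figure D4:**
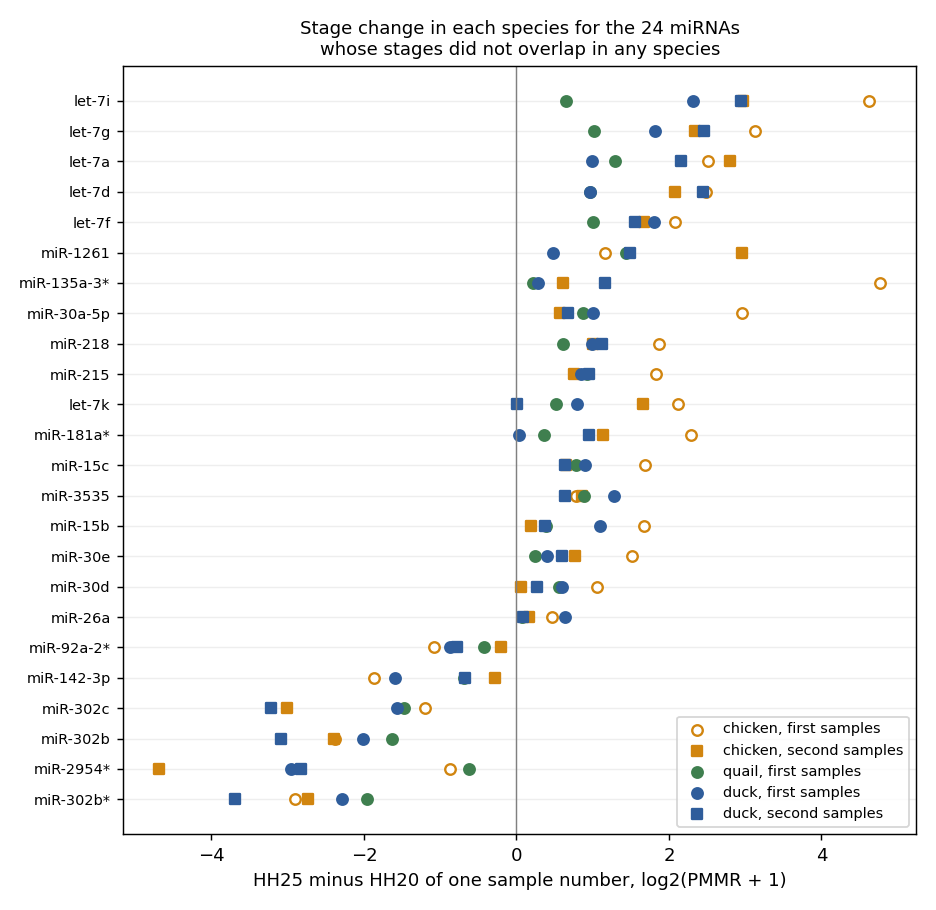
HH25 minus HH20 difference (log2(PMMR + 1)) between samples of the same species and number, for the 24 miRNAs whose stages did not overlap in any species. By the rule that selected these miRNAs, points for chicken, quail and duck lie on 1 side of 0 for each. Quail points (let-7i 0.66, miR-2954* -0.63) lie nearest to 0 for several. The first chicken samples (open circles) lie farthest out for let-7i and miR-135a-3*.

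Whether the stage effect differed between species was tested with an F test of the species-by-stage terms in 10 samples. No miRNA was called (limma, smallest adjusted p = 0.999), and none had an unadjusted p under 0.05, the smallest being 0.0942 for miR-184. A difference between species was thus not detectable in these samples. Without the first chicken sample at HH25 the test also called 0 (limma), with 6 miRNAs at an unadjusted p under 0.05. The miRNAs with the smallest p of this test were miR-184, miR-205a, let-7k, miR-143 and let-7i. let-7i had differences of 3.80 in chicken, 2.84 without the first sample at HH25, 0.66 in quail and 2.63 in duck. miR-205a, a miRNA of surface epithelium, had differences of -1.28 in chicken, -1.82 in quail and 1.02 in duck. miR-143, a smooth muscle and mesenchyme miRNA, had -1.66 in chicken, -0.19 without the first sample at HH25, 0.83 in quail and 0.87 in duck. With the second chicken sample at HH25 left out, so that the first stood for its group, the same test called 19 miRNAs. For miR-302b the differences were -2.38 in chicken, -1.63 in quail and -2.55 in duck. In the same order they were -2.82, -1.96 and -2.99 for miR-302b* and -2.10, -1.47 and -2.39 for miR-302c. Quail, with 1 pool a stage, had the smallest fall in each.

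Leaving out the first chicken sample at HH25 moved the effects of 28 miRNAs by more than 0.5 on the log2 scale, 18 upward and 10 downward, and 32 miRNAs had another sign without it. The median SE fell from 0.39 to 0.34, and 142 miRNAs had a smaller SE in the 9 samples. The 5 that moved most were uncalled in both fits. miR-34c, at 467 PMMR in that sample and 4.22 in the second chicken sample at HH25, had an effect of 1.02 in 10 samples and -0.17 in 9. miR-199, a mesenchymal miRNA, stood at 57.4 PMMR in that sample and at 1521 to 5005 in the other 9, and its effect went from -0.48 to 0.68. miR-199* went from -0.43 to 0.65, miR-122, known from liver, from -0.57 to 0.42 and miR-92b from 0.24 to -0.76. Without both first chicken samples, 13 miRNAs were called and included the 6. With sample weights estimated from the scatter, the first chicken sample at HH25 received 0.138, the others 0.712 to 2.28, and 20 miRNAs were called, the 6 included.

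**Figure D5:**
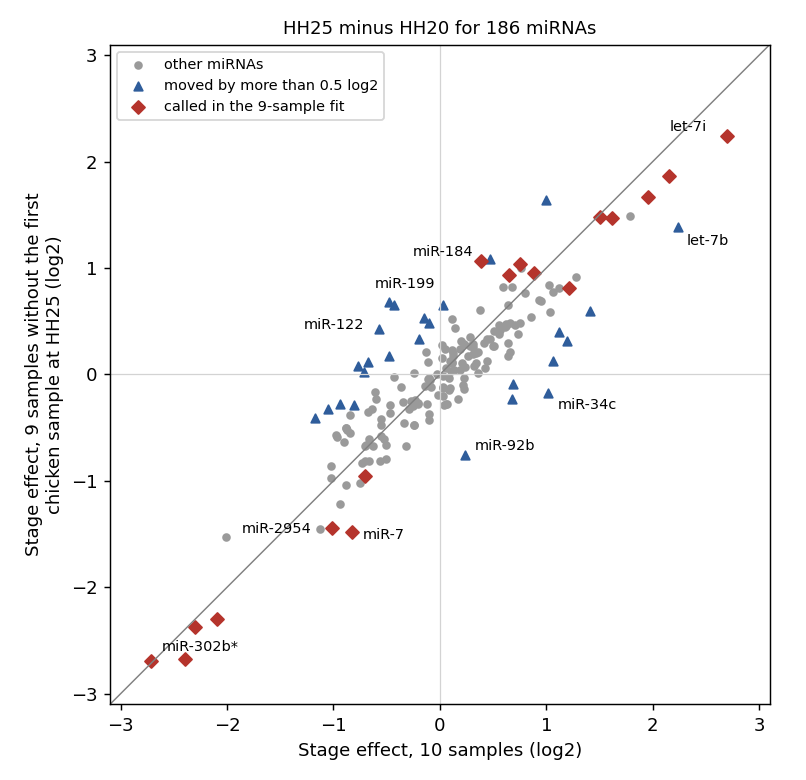
Stage effect (HH25 minus HH20, log2(PMMR + 1)) of all miRNAs in 10 samples (x axis) and in 9 without the first chicken sample at HH25 (y axis), with the line of equal values. The let-7 and miR-302 calls lie far out near the line, and miR-199, miR-122, miR-34c and miR-92b lie in the quadrants where the sign differs.

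The first samples and the second samples alone, which differ in the number of embryos pooled, gave 0 calls each by limma (29 and 61 with an unadjusted p under 0.05), in designs of 3 against 3 and 2 against 2. Their values for the called miRNAs had the same sign. Those miRNAs were chosen from fits of these same samples, so the shared sign is partly set by that choice. For miR-302b the first samples gave -2.01 and the second -2.74, with miR-302b* at -2.39 and -3.21, miR-302c at -1.41 and -3.12, let-7f at 1.63 and 1.61, let-7g at 1.99 and 2.40 and let-7i at 2.53 and 2.95. The pair of values was -0.05 and -1.98 for miR-7, with miR-140-3p at 0.44 and 1.22.

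At the other end, the stage effects of some abundant miRNAs had narrow intervals. The 95% interval of the stage effect lay within 1 log2 unit of 0 on either side for 42 miRNAs in 10 samples and for 67 in 9. The 5 with the narrowest intervals among miRNAs of at least 15 PMMR in all samples were miR-26a, miR-130a, miR-27b, miR-30d and miR-363*. miR-130a stood between 1253 and 1562 PMMR in the 5 HH20 samples and between 1308 and 2198 at HH25, with an effect of 0.23 (95% interval -0.26 to 0.71). miR-26a, at 1662 to 4573 PMMR at HH20 and 2216 to 5408 at HH25, had an effect of 0.28 (95% interval -0.18 to 0.74), although its stages did not overlap within any species. The stages of miR-30d, whose effect was 0.51, did not overlap within any species either. miR-27b had 0.31 (-0.19 to 0.82) and miR-363* 0.10 (-0.41 to 0.60). When libraries were rescaled to the summed miRNAs, miR-363* turned to -0.12 in 10 samples, while the other 4 kept a positive sign, miR-130a at 0.01.

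Lists of miRNAs known from particular tissues were used to describe the pools. The mesenchyme and cartilage list (6 arms of miR-140, miR-199 and miR-455) summed to 21476 to 40633 PMMR at HH20 and to 11916 to 56417 at HH25, the lowest value being the first chicken sample at HH25. In 9 samples 2 of its 6 arms, those of miR-140, were called higher, beside 5.38% of all miRNAs. Neither was called when libraries were rescaled to the summed miRNAs. The 5 surface ectoderm miRNAs summed to 252 to 1915 PMMR at HH20 and 62.6 to 1461 at HH25, and the 3 neurosensory miRNAs to 2382 to 7499 and 511 to 8914, none called. In the first chicken sample at HH25 these were 62.6 and 511 PMMR, against 561 and 8914 in the second. The 9 neural arms summed to 1113 to 1925 PMMR at HH20 and 729 to 3623 at HH25, the highest in that same sample, and 1 of the 9, miR-7, was called lower in 9 samples, beside 3.76% of all miRNAs. All 4 white blood cell miRNAs had negative effects in both fits, with sums of 278 to 691 PMMR at HH20 and 76.3 to 389 at HH25. The 3 of red blood cells summed to 977 to 2460 and 369 to 2528 PMMR, the 2 arms of miR-126, known from endothelium, to 16407 to 40678 and 4992 to 37720, the 2 muscle miRNAs to 43.6 to 393 and 93.2 to 511, and the 4 arms of miR-143 and miR-145 to 37942 to 55208 and 5208 to 113250, with none of these called in either fit. No listed marker was at 0 in any sample. The part of these tissues in the stage differences was not tested.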

How the data were processed

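Small RNA of FNP mesenchyme was sequenced on the Illumina GAIIX. The authors removed adapters and aligned reads with miRanalyzer release 1, at up to 2 mismatches, to the chicken and human mature sequences in miRBase 16. They describe retaining miRNAs over 15 PMMR in at least 1 sample, although miR-193b, which is listed, reached 13.9 PMMR at most. For each of the 11 libraries they deposited the PMMR of 186 miRNAs beside its total reads. PMMR is relative to all reads, so the share of miRNA reads enters every value. PMMR times total reads gave whole reads for 100.0% of the 2046 values (within 0.1 reads). Values of 3 reads or fewer were counted as near the floor, and the first duck sample at HH25 had values as low as 2 reads. Chicken HH25 sample 2 had 2 runs (r = 0.994), which were averaged.

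Stage effects on log2(PMMR + 1) were fitted with limma 3.58.1 in R 4.3.3, with an intensity trend, species as a term and a threshold of 0.05. Other values came from numpy 2.4.6, scipy 1.17.1 and pandas 2.3.3 in Python 3.11.15, plots from matplotlib 3.10.9. Fits were checked on simulated data that gave each miRNA 1 spread in all samples and the same stage effect in each species. That check does not cover a library that stands apart, as the first chicken sample at HH25 did. The members, lists and tests were chosen with earlier results of these data known. Named are the called miRNAs, the let-7, miR-302/miR-367 and miR-30 lists (7 uncalled miR-30 arms by range), the 5 in each direction with the largest effect among uncalled miRNAs without stage overlap (2 existed among the lower), the 5 that moved most without the first chicken sample at HH25, the 5 smallest p of the species test and the 5 narrowest intervals. The sample number marks the pool size (40 or 5 embryos), and samples of the same number are not known to have been prepared together. The correlation across miRNAs of the second-minus-first difference between stages was 0.01 in chicken and 0.25 in duck. Hairpin positions are the study's, on gga3.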

Additional observations from a re-analysis of the deposited data

How the results depend on the processing

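The count of 6 calls in 10 samples was 16 with libraries centred on their median, 20 with sample weights, 10 with the sample number as a term, 13 without both first chicken samples (chosen after seeing the data), and 0 with the first samples or the second samples alone. The 17 calls in 9 samples became 26 when centred, 26 with sample weights and 9 without an intensity trend. The replicate block gave 7 calls in 10 samples and 20 in 9, the changes being let-7a, let-7c, let-7d and miR-218, and it changed no other call. Leaving out 1 sample gave 2 to 17 calls in 10 samples, 5 to 18 in 9, 0 to 19 for the species test and 28 to 37 miRNAs without stage overlap. The 24 miRNAs without stage overlap became 37 without the first chicken sample at HH25, and then, as alternatives chosen after seeing the data, 45 when centred and 44 when rescaled to the summed miRNAs. Species means in 1 direction were a looser count of 90. Pseudocounts of 0.1 and 10, a mean of at least 15 PMMR, voom on recovered reads, either run alone and leaving out quail kept these counts within 1.5 times.

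Among named miRNAs, 32 of 1465 alternatives turned the sign, in 10 uncalled miRNAs, and none in a called one. The called miRNAs were chosen from the same samples, so a kept sign is partly set by that choice. Of 530 alternatives of the called, 108 lost the call. With sample weights the effect was -0.11 for miR-34c, 0.63 for miR-199, 0.51 for miR-199*, -0.66 for miR-92b, 0.65 for miR-122 and 0.37 for miR-143. In the second samples alone it was -0.23 for let-7a*, -0.10 for let-7c*, 0.89 for miR-199, 1.08 for miR-199*, -1.02 for miR-92b, 2.43 for miR-122, 0.091 for miR-205a and -0.27 for miR-363*. Without both first chicken samples it was 0.58 for miR-199, 0.64 for miR-199*, -0.94 for miR-92b and 0.52 for miR-143. Without quail miR-122 was 0.0036, and rescaled miR-363* was -0.12. Leaving out 1 sample gave -1.85 to 0.42 for miR-122, -0.47 to 0.53 for miR-143, -1.09 to 0.65 for miR-199*, -1.19 to 0.68 for miR-199, -0.17 to 1.83 for miR-34c, -0.025 to 0.18 for miR-363* and -0.76 to 0.78 for miR-92b. The cause of these changes was not tested. The planned negative binomial tests on recovered reads were not run. Depth leaves values near 3 reads, as in miR-367, without precision, and intervals cover pools, not embryos.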
